A study of Mus musculus with 22 samples.

Results

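Nos2, Ido1 and Gch1 are 3 enzyme genes that interferon-gamma is known to induce in macrophages, and their RNA was followed here in whole mouse liver after an injection of the cytokine. The genes were chosen by name, as the members of a short list that the array's probe table pairs with 1 symbol, and all 3 were found among the 8251 genes tested. Nos2 encodes inducible nitric oxide synthase, which makes nitric oxide from arginine and which macrophages use against microbes. Ido1 encodes indoleamine 2,3-dioxygenase, which opens the ring of tryptophan at the first step towards kynurenine. Gch1 encodes GTP cyclohydrolase, the first and limiting enzyme in the synthesis of tetrahydrobiopterin, the cofactor that nitric oxide synthases and the aromatic amino acid hydroxylases need. In liver the same substrates and cofactor have other uses. Hepatocytes break down tryptophan through Tdo2, use arginine in the urea cycle and use tetrahydrobiopterin for phenylalanine hydroxylase.

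All mice lacked interferon-gamma, so that the injected dose was their only source of it. Livers came from mice lacking interferon-gamma alone (IFNg-/-) or lacking the feedback inhibitor SOCS1 as well (SOCS1-/-IFNg-/-), and no wild-type liver was among them. Treated mice received 4 µg of recombinant interferon-gamma in 100 µl into the peritoneum and were examined after 0.5, 1, 2, 4, 12, 16, 24 or 48 h. Controls of each genotype were 1 untreated liver and 1 liver each taken 4 and 12 h after 100 µl of phosphate-buffered saline (PBS). There was 1 array for each genotype and condition, 22 in all. Strain, age, sex, the hour at which livers were taken and any pooling of animals were not given in the sources used here. Values are log2 expression per probe set, and a difference of 1 is a doubling.

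The deleted genes and the tissue were checked on the same arrays. Ifng lay between 2.18 and 2.61 on all 22 arrays. Socs1 stayed between 6.57 and 7.02 in SOCS1-/-IFNg-/- livers and reached 9.21 in the IFNg-/- liver at 2 h. Of 15 measured hepatocyte markers, 14 had a mean above the 95th percentile of 36 genes that liver does not express (such as crystallins, protamines and pituitary hormones); the exception was Hpd. Of 15 measured macrophage and Kupffer cell markers 6 did, Clec4f and C1qc among them with means of 8.04 and 8.85, and Adgre1 and Cd68 did not (6.20 and 6.47). Of 11 T and NK cell markers 0 did. The PBS 12 h livers stood apart among the controls. Cxcl9, a chemokine gene induced by interferon-gamma, was 7.76 in IFNg-/- and 8.31 in SOCS1-/-IFNg-/- there against 4.16 to 4.46 in the other 4 controls (limma, 3.803 ± 0.602 (SE) above untreated, adjusted p = 0.0228). With these 2 arrays taken out of the controls, 0 members were called in any response, as with them. With them, 0% to 5.03% of all genes were called in a response, so a count of 0 of 3 does not test these controls. In whole liver, fewer cells of a type and less RNA per cell cannot be told apart.

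Gch1 was the member with an entry in the RefSeq promoter table used here (1 of 3; Nos2 and Ido1 had none). Its upstream sequence is shown because Gch1 was also the member whose signal moved across the livers. The 250 bases before its annotated start lie at chr14:47189414-47189663 on the minus strand of GRCm38.p6, and capitals mark the match to the NF-kappaB site:

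Gch1: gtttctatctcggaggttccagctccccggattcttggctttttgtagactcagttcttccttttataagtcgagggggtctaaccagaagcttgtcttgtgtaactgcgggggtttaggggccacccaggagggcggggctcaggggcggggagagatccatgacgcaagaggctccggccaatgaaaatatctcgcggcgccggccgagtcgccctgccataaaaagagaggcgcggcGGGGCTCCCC

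Both strands were searched for 3 motifs: the gamma-activated sequence (TTCNNNGAA), the core of the interferon-stimulated response element and the NF-kappaB site. The window held 0 matches to the first and 0 to the second, which 7.02% and 2.98% of all 32851 promoter windows of that length hold. It held 1 match to the NF-kappaB site, at bases -10 to -1 from the start, as did 7.25% of the windows at some position. A match is a run of letters and not a measured binding site, and the absence of a match concerns these bases alone. The window was 59.2% G and C, against a median of 52.4% over all windows.

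No rise of Nos2 was detected at any time after interferon-gamma. In IFNg-/- livers Nos2 was 5.08 untreated, 5.05 at PBS 4 h and 4.97 at PBS 12 h, and 5.04, 5.01, 5.11, 5.07, 5.05, 5.06, 5.20 and 4.95 from 0.5 to 48 h after interferon-gamma. In SOCS1-/-IFNg-/- livers it was 5.34 untreated, 5.02 and 4.95 after PBS, and 5.10, 4.94, 4.999, 4.98, 5.005, 4.98, 5.05 and 4.96 along the same times. The highest of the 22 values was thus an untreated liver. Treated and control livers overlapped in both genotypes, and 12 of the 16 treated livers lay inside the range of the 3 controls of their genotype.

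**Figure D1:**
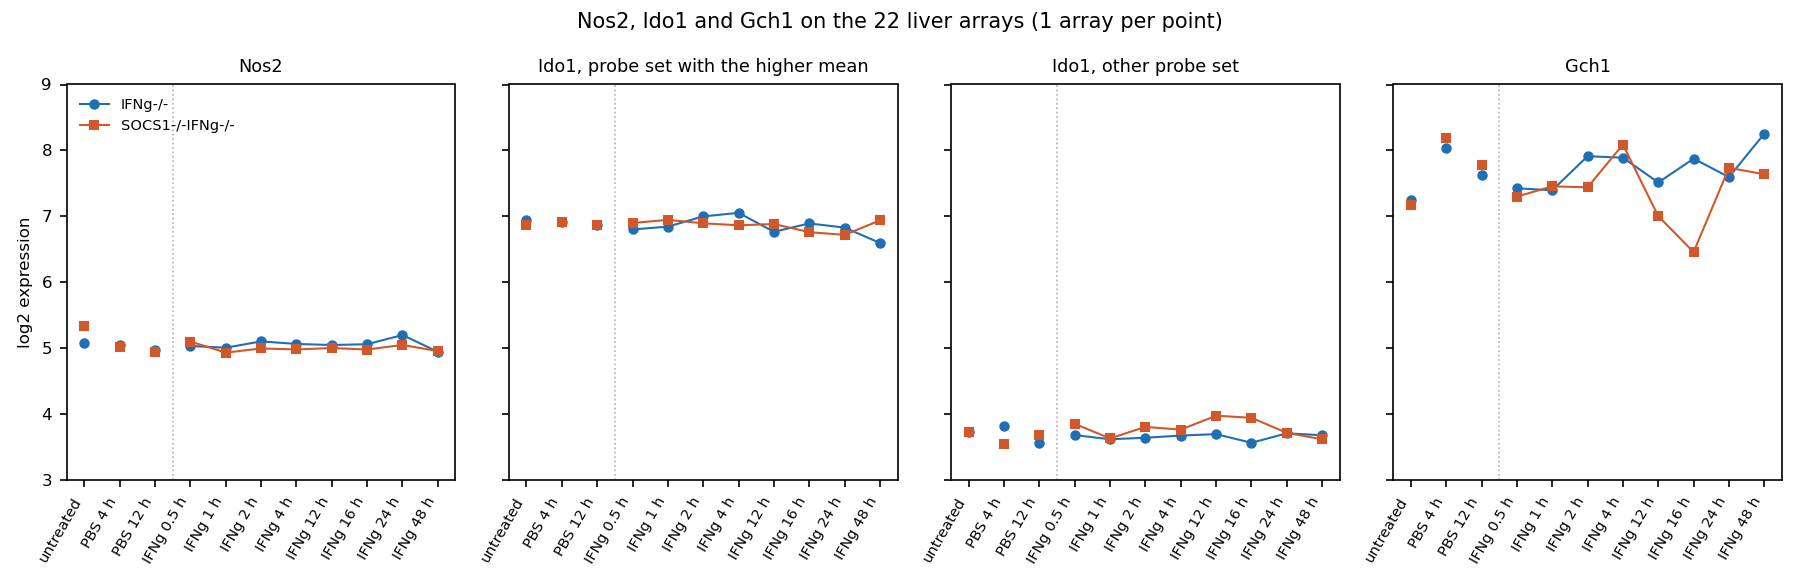
Log2 expression (vertical axis) of Nos2, both probe sets of Ido1, and Gch1 in each condition (horizontal axis), with 1 point per array and the genotypes in 2 colours; controls stand left of the dotted line. Nos2 and both Ido1 probe sets run flat, within 0.46 log2 units or less, while Gch1 spans 6.46 to 8.26.

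Ido1 has a pair of probe sets, which gave different levels and the same flat course. The probe set with the higher mean ran from 6.60 to 7.05 with a median of 6.88, and the other from 3.54 to 3.98 with a median of 3.69. On the former, IFNg-/- livers gave 6.94, 6.91 and 6.88 as controls (untreated, PBS 4 h, PBS 12 h) and 6.80, 6.85, 7.0, 7.05, 6.77, 6.89, 6.83 and 6.60 from 0.5 to 48 h. SOCS1-/-IFNg-/- livers gave 6.87, 6.91 and 6.86, then 6.90, 6.95, 6.90, 6.87, 6.88, 6.76, 6.72 and 6.94. Controls sat in the middle: 4 of 16 treated livers were above the controls of their genotype and 7 below. On the other probe set the highest values were those of the SOCS1-/-IFNg-/- livers at 12 and 16 h, 3.98 and 3.95, against controls of 3.54 to 3.74 in that genotype. The late response there was 0.16 ± 0.08 (SE) and was not called by limma (adjusted p = 0.577).

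How near the floor these signals lay was read from the 36 genes not expressed in liver on the same arrays. Probe sets bind with different strength, so this places a signal on its array and does not compare amounts of RNA. The median of these genes was 5.43 to 5.78 on the 22 arrays and their 95th percentile 7.17 to 7.46. Nos2 was below that median on every array and stood between percentiles 35.0 and 42.2 of all probe sets on the array. The brighter Ido1 probe set was above their 75th percentile and below their 95th on every array (percentiles 69.3 to 77.5 of all probe sets), and the dimmer one was below their median throughout (percentiles 14.6 to 20.5). Gch1 was above the 95th percentile on 17 of 22 arrays, the exceptions being both untreated livers and the SOCS1-/-IFNg-/- livers at 0.5, 12 and 16 h. On every array all 3 members were above Ifng, a gene absent from these mice.

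The spread over the arrays placed the members in the same order. Nos2 spanned 0.40 log2 units from the lowest to the highest array, a range larger than that of 13 of the 36 genes not expressed in liver and of 33.2% of all genes. The Ido1 probe sets spanned 0.46 and 0.43, each a larger range than 15 of those 36 genes had. Gch1 spanned 1.80, a 3.47-fold range that exceeded all 36 and 97.5% of all genes. In the same livers Irf1, the transcription factor through which interferon-gamma is known to induce both Nos2 and Ido1, spanned 4.26, and the chemokine gene Cxcl9 spanned 7.32.

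**Figure D2:**
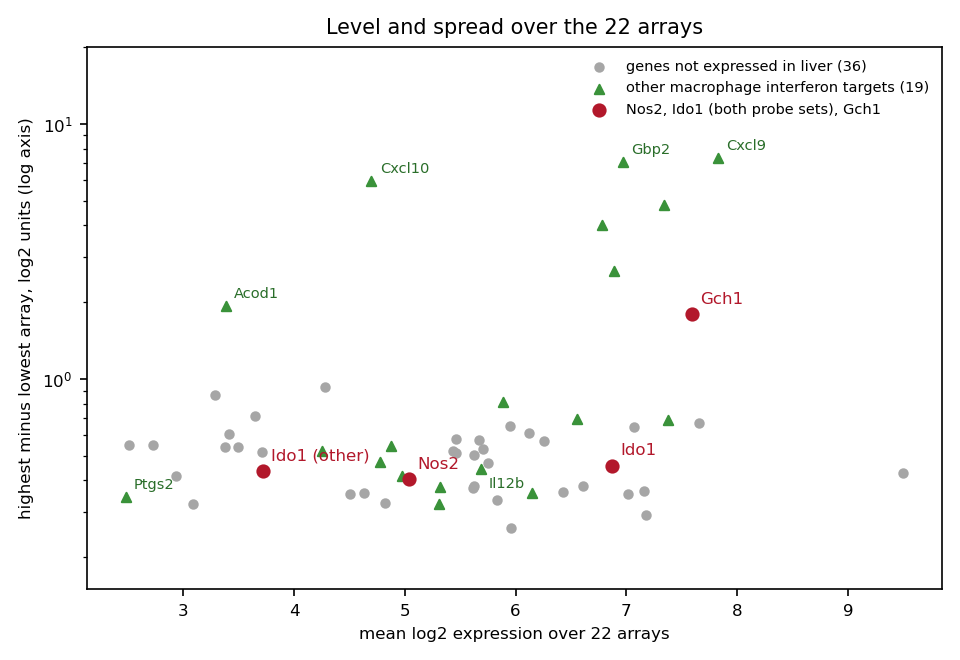
Mean log2 expression over 22 arrays (horizontal axis) against the highest minus the lowest array in log2 units (vertical log axis), 1 point per gene or, for Ido1, per probe set. Nos2 and Ido1 lie among the 36 genes not expressed in liver, Gch1 lies above all of them at 1.80, and of the macrophage interferon targets Cxcl9 reaches 7.32.

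Of the 3 members 0 passed the threshold in any response to interferon-gamma. The response at a time is the mean of both genotypes minus the mean of the 6 control arrays, fitted with limma across all genes, and a gene was called at an adjusted p below 0.05. In order of time from 0.5 to 48 h, the shares of all genes called were 0%, 0.158%, 1.66%, 5.03%, 1.42%, 0.448%, 0.17% and 0.0121%. A count of 0 of 3 is near these shares, so it is no result about the members, and their intervals are given instead. At an unadjusted p under 0.05 the count was 1 of 24, Gch1 at 16 h, where 697 of all 8251 genes had such a p.

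For Nos2 the responses ran from -0.11 ± 0.07 (SE) at 48 h to 0.06 ± 0.07 at 24 h, with adjusted p of 0.838 or more. The highest upper end of their 95% intervals was 0.22, a 1.16-fold rise. Ido1 ran from -0.13 ± 0.09 at 48 h to 0.07 ± 0.09 at 4 h, with an upper end of 0.26 or 1.19-fold (0.37 or 1.29-fold on its other probe set). Over the same livers and the same fit Cxcl9 rose by 5.68 ± 0.49 at 12 h and Irf1 by 3.43 ± 0.42 at 2 h. Against PBS of the same time Cxcl9 rose by 5.30 ± 0.60 at 4 h, and its difference of 3.20 ± 0.60 at 12 h was not called (adjusted p = 0.0711). These limits hold for the probe signal. A signal that is mostly background understates a change in the RNA, and by how much was not tested.

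**Figure D3:**
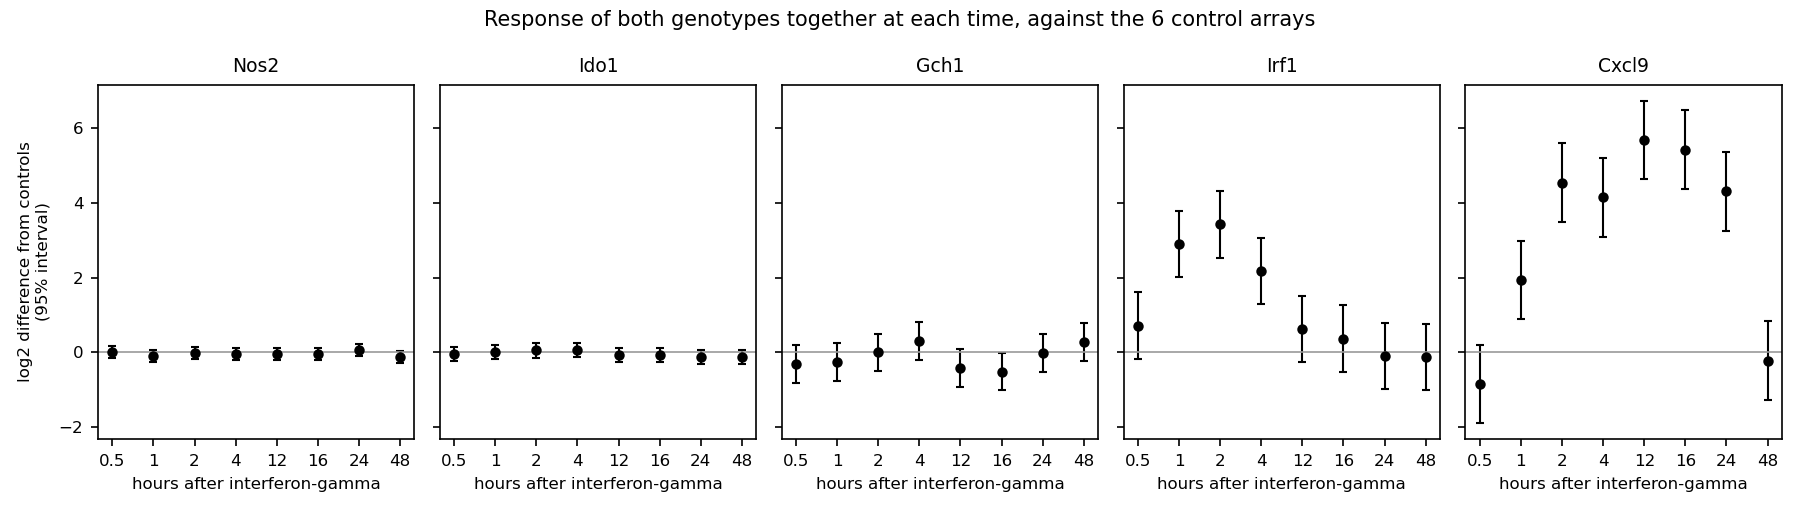
Log2 difference from the 6 control arrays (vertical axis) at 8 times after interferon-gamma (horizontal axis, hours) for Nos2, Ido1, Gch1, Irf1 and Cxcl9; points are estimates of both genotypes together and bars 95% intervals. Nos2 and Ido1 stay near 0 with upper ends of 0.22 and 0.26, while Irf1 reaches 3.43 and Cxcl9 5.68.

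Gch1 varied across the livers, and most treated livers stayed within the range of their controls. IFNg-/- livers gave 7.25 untreated, 8.03 at PBS 4 h and 7.63 at PBS 12 h, then 7.43, 7.40, 7.91, 7.89, 7.52, 7.88, 7.60 and 8.26 from 0.5 to 48 h. SOCS1-/-IFNg-/- livers gave 7.18, 8.19 and 7.78, then 7.30, 7.46, 7.44, 8.09, 7.003, 6.46, 7.74 and 7.64. The untreated livers and those of the first hour were low in both genotypes, and the livers at 4 h were high with PBS as with interferon-gamma. Of 16 treated livers 1 was above the controls of its genotype (IFNg-/- at 48 h) and 2 were below (SOCS1-/-IFNg-/- at 12 and 16 h).

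Its responses ran from -0.51 ± 0.24 (SE) at 16 h (adjusted p = 0.584) to 0.31 ± 0.24 at 4 h. The size at 16 h depended on the controls: it was -0.05 against the untreated livers alone and -0.94 against the PBS 4 h livers alone. Against PBS of the same time Gch1 differed by -0.12 ± 0.29 at 4 h (95% interval -0.74 to 0.50) and by -0.45 ± 0.29 at 12 h (-1.07 to 0.17). Nos2 differed by -0.01 ± 0.09 and 0.07 ± 0.09 and Ido1 by 0.05 ± 0.11 and -0.04 ± 0.11 in these comparisons. Of the members 0 were called by limma at either time, where the shares of all genes called were 1.36% and 0.109%. An unadjusted p under 0.05 was reached by 0 members, against 1001 and 583 of all 8251 genes.

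Among the 21 comparisons with all arrays, Gch1 differed most between the PBS 4 h and the untreated livers. Gch1 was 0.90 ± 0.29 (SE) higher at PBS 4 h than in untreated livers, 1.86-fold, in both genotypes (8.03 against 7.25, and 8.19 against 7.18). The unadjusted p was 0.00762 and the gene was not called (limma, adjusted p = 0.453). At PBS 12 h the difference was 0.49 ± 0.29 (adjusted p = 0.562). Nos2 differed by -0.17 ± 0.09 and -0.25 ± 0.09 there, the latter with an unadjusted p of 0.0153 (adjusted p = 0.343), with the untreated SOCS1-/-IFNg-/- liver at 5.34 as its high value. The shares of all genes called were 0.0242% for PBS 4 h and 0.109% for PBS 12 h. An unadjusted p under 0.05 was reached by 670 and 921 of all 8251 genes. The comparison of PBS with untreated livers was added after the values of Gch1 were seen.

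Other measures differed between the untreated and the PBS 4 h livers as well. Nr1d1, a repressor of the circadian clock, was 5.68 in the IFNg-/- and 6.48 in the SOCS1-/-IFNg-/- liver without treatment. It was 7.58 and 7.57 in the PBS livers of 4 h, and 7.41 and 7.21 in the treated livers of 4 h. In the PBS livers of 12 h it was 5.999 in IFNg-/- and 5.70 in SOCS1-/-IFNg-/-, where Gch1 was 7.63 and 7.78. The difference between the 3-prime and 5-prime probe sets of Actb, a sign of RNA quality, was 1.32 and 1.31 untreated and 0.66 to 0.83 on the 4 PBS arrays. At 48 h it was 1.33 in the IFNg-/- and 1.56 in the SOCS1-/-IFNg-/- liver, where Gch1 was 8.26 and 7.64. The part of the hour, the injection or RNA quality in the Gch1 values was not tested.

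Loss of SOCS1 went with lower Gch1 in some late livers, short of the threshold. The within-pair difference, SOCS1-/-IFNg-/- minus IFNg-/- of the same condition, was -0.08, 0.15 and 0.14 in the 3 control pairs and -0.13, 0.06, -0.47 and 0.20 at 0.5, 1, 2 and 4 h. At 12, 16, 24 and 48 h it was -0.51, -1.42, 0.14 and -0.62. The late pairs thus lay below the control pairs in 3 of 4, with the 16 h pair farthest out. The late difference minus that in controls was -0.67 ± 0.27 (SE, 95% interval -1.25 to -0.09, unadjusted p = 0.026), and limma did not call it (adjusted p = 0.36). An unadjusted p under 0.05 was reached by 938 of all 8251 genes in this comparison. Without the 16 h pair the difference for Gch1 was -0.40 (adjusted p = 0.594), and without the 24 h pair -0.92 (adjusted p = 0.132). Clec4f and Cd5l, which mark Kupffer cells, differed in the same direction in this comparison, by -0.61 ± 0.13 and -0.77 ± 0.29 (SE, adjusted p from limma 0.15 and 0.351, not called). They were the lowest of their list of 15. Adgre1, Cd68, Marco, Itgam and Mpeg1 of that list differed the other way, by 0.03 to 0.23. Clec4f was 7.91 in IFNg-/- and 7.31 in SOCS1-/-IFNg-/- at 12 h, and 7.79 against 7.08 at 16 h. The median of the 15 macrophage and Kupffer cell markers was -0.19 and that of the 15 hepatocyte markers -0.15, against 0.04 over all genes, and their part in the Gch1 difference was not tested. In the 16 h pair Nr1d1 also differed between the genotypes, 7.30 in IFNg-/- and 5.96 in SOCS1-/-IFNg-/-, which was not tested as part of the Gch1 difference.

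**Figure D4:**
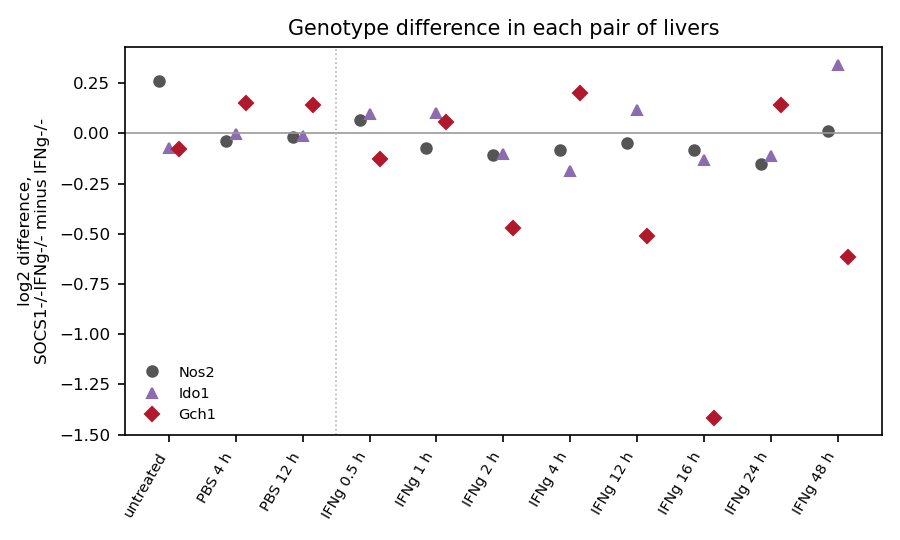
Log2 difference SOCS1-/-IFNg-/- minus IFNg-/- (vertical axis) in each of the 11 pairs of livers of 1 condition (horizontal axis) for Nos2, Ido1 and Gch1, 1 point per pair. Nos2 and Ido1 stay within 0.34 of 0, and Gch1 reaches -1.42 at 16 h.

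For Nos2 and Ido1 no genotype difference beyond the spread of the pairs was detected. The difference over all 11 pairs was taken as the mean of the control, early and late means, each with the same weight. It was -0.02 ± 0.04 for Nos2 (95% interval -0.10 to 0.07), 0.00 ± 0.05 for Ido1 (-0.10 to 0.11) and -0.20 ± 0.11 for Gch1 (-0.44 to 0.03). The 4 h pair, which is 1 liver against 1 and was singled out because its interferon response stood apart, differed from the other 10 pairs by -0.07 ± 0.13 for Nos2 and -0.21 ± 0.15 for Ido1, against 3.36% of all genes called there. The shares called were 0.218% over all pairs, 0.0121% in controls, and 0% for the early and 0% for the late difference minus controls. Within a genotype, early or late livers against controls called 0% of all genes in IFNg-/- (early and late alike), and 0.0121% early and 0% late in SOCS1-/-IFNg-/-. The members' differences there lay between -0.14 and 0.17, other than Gch1 in late SOCS1-/-IFNg-/- livers (-0.50 ± 0.29, adjusted p = 0.649). Over all 21 comparisons the 3 members gave 63 tests, of which limma called 0, with 4 at an unadjusted p under 0.05 (3 of Gch1 and 1 of Nos2). In the comparisons that gave these 4, such a p was reached by 670 to 938 of all 8251 genes.

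Of 14 measured genes of arginine and nitric oxide metabolism, Nos2 included, 0 rose and 0 fell in the 8 responses. Over all genes 4.31% rose and 2.22% fell at 1 or more times. A count of 0 of 14 is near these shares, so it is no result about the list. The list's median response lay between -0.12 and 0.02, against -0.03 to 0.01 over all genes. Nos1 and Nos3, the neuronal and endothelial synthases, ranged from 4.30 to 4.82 and from 5.47 to 5.77. Arg1, the liver arginase that competes for the same substrate, ranged from 10.69 to 11.86, and its largest difference was -0.40 ± 0.12 (SE) at 24 h, not called. Asl, which regenerates arginine from argininosuccinate, differed by -0.51 ± 0.17 at 4 h. It was called lower there without the PBS 4 h pair or without the 16 h pair.

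Of the tetrahydrobiopterin genes, Gch1 included, 0 of 8 were called in either direction, where 4.31% of all genes rose and 2.22% fell. A count of 0 of 8 is near these shares, so it is no result about the list. The median response lay between -0.09 and 0.00. Qdpr, which recycles the oxidised cofactor, ranged from 10.09 to 10.93 and had its largest difference at 12 h, -0.36 ± 0.16 (SE). Pts and Spr, which follow Gch1 in the synthesis, had their largest differences at -0.15 ± 0.10 and -0.26 ± 0.14. Tph1, a hydroxylase that uses the cofactor, ranged from 3.15 to 3.65, below the median of the genes not expressed in liver. It differed by -0.25 ± 0.07 at 4 h. Tph1 was called lower there without the PBS 4 h pair, with the PBS 12 h arrays out of the controls and against the untreated livers alone.

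In the tryptophan list 1 of 9 genes rose (Wars) and 1 fell (Ddc), where 4.31% of all genes rose and 2.22% fell. Wars, the tryptophanyl-tRNA synthetase and a known interferon-gamma target, was 7.46 to 7.71 in the 6 control livers. In treated IFNg-/- livers it was 8.01, 8.11 and 7.74 at 2, 4 and 12 h, and in treated SOCS1-/-IFNg-/- livers 8.01, 9.15 and 8.21. All 6 of these livers were above all controls. The response at 4 h was 1.03 ± 0.17 (SE, adjusted p = 0.00248), and against PBS of the same time 1.05 ± 0.21 (adjusted p = 0.0206). The value of 9.15 in SOCS1-/-IFNg-/- at 4 h rests on 1 liver.

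Ddc, the decarboxylase that makes serotonin and dopamine from their precursors, was 7.20 and 7.05 at 4 h against 7.90 to 8.52 in the controls. It fell by 1.17 on the log2 scale (SE 0.10, adjusted p = 1.38e-05), and against PBS of the same time by 0.92 (SE 0.12, adjusted p = 0.00137). At 1 h Ddc was 8.74 and 8.83, above all 6 controls, a difference of 0.49 ± 0.10 that was not called (adjusted p = 0.0802). It was called higher there with array weights, against the PBS 4 h livers alone, and when either the 4 h or the 12 h pair was left out. The fall was called at 4 h alone, so leaving out the 4 h pair takes that comparison away and cannot test it. Tdo2, the tryptophan dioxygenase of hepatocytes, ranged from 11.85 to 12.40 over the 22 arrays, and its largest difference was -0.17 ± 0.10 at 4 h, not called. The list's median response lay between -0.09 and 0.07.

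**Figure D5:**
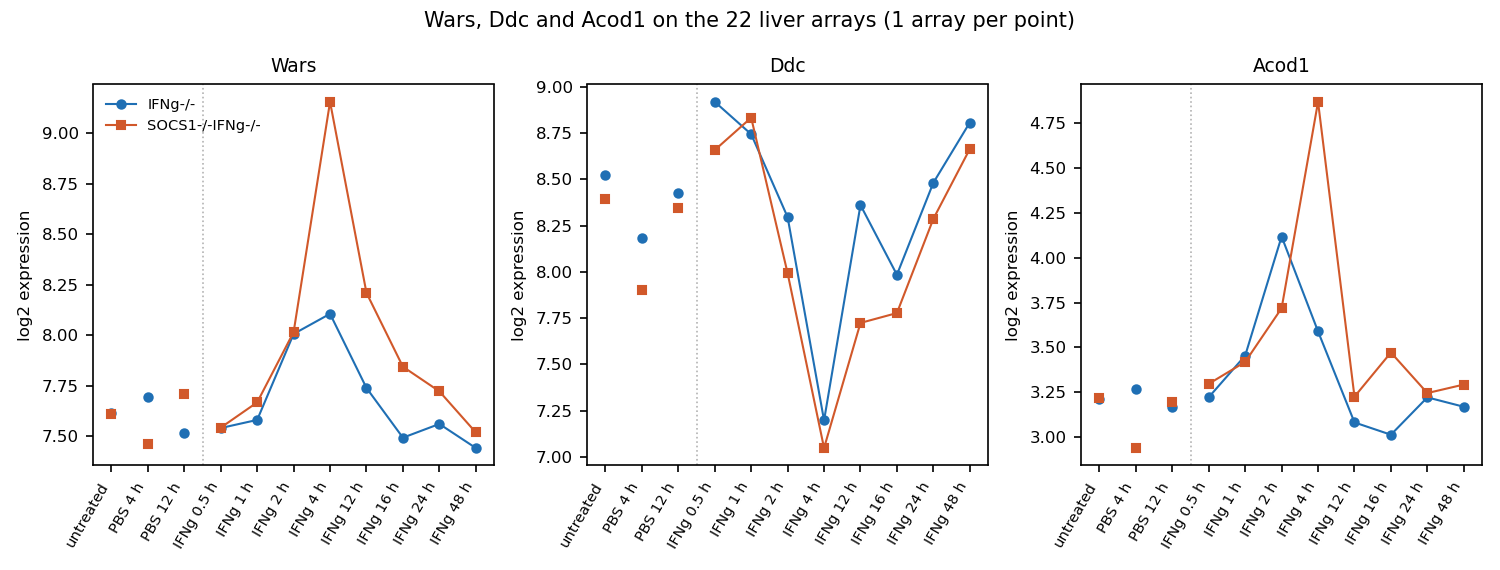
Log2 expression (vertical axis, a separate scale for each gene) of Wars, Ddc and Acod1 in each condition (horizontal axis), 1 point per array and the genotypes in 2 colours, controls left of the dotted line. At 4 h Wars reaches 9.15 and Acod1 4.87 in SOCS1-/-IFNg-/-, and Ddc stands at 7.20 and 7.05.

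Of 12 measured genes of the pathways known to induce the members in macrophages, 7 rose at 1 or more times and 0 fell. The shares of all genes were 4.31% and 2.22%. The 7 were Irf1, Irf8, Il1b, Nfkbia, Rela, Jak1 and Jak2, of which Nfkbia encodes an inhibitor and not an inducer. The list's median was highest at 4 h, 0.49. Irf8, a transcription factor of myeloid cells, rose by 2.34 ± 0.35 (SE) at 2 h (limma, adjusted p = 0.0019). Il1b, a macrophage cytokine, rose by 1.21 ± 0.14 at 1 h (limma, adjusted p = 0.00207). The mean of Il1b over the arrays was 4.56, below the median of the genes not expressed in liver. Rela, an NF-kappaB subunit, rose by 0.59 ± 0.11 at 4 h, its inhibitor Nfkbia by 0.62 ± 0.15 and the kinase gene Jak2 by 0.57 ± 0.14. These last 3 calls at 4 h were lost with array weights, where the adjusted p from limma was 0.0507 for Rela, 0.391 for Nfkbia and 0.101 for Jak2. Jak1 rose by 0.41 ± 0.07 at 4 h, a call also lost with array weights. With array weights or against the PBS 4 h livers alone 4 of 12 rose. Without the 4 h pair 4 of 12 rose as well, but that setting has no 4 h response. Tnf, whose product is known to act with interferon-gamma on Nos2, had its largest difference at 0.19 ± 0.11 and Ifnb1 at -0.10 ± 0.07, neither called.

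Among 19 other genes that interferon-gamma induces in macrophages, 7 rose and 12 were not called. Cxcl9, Gbp2, Cxcl10, Igtp, Irgm1, Acod1 and Fcgr1 rose, and 0 fell, against 4.31% and 2.22% of all genes. The 12 include Socs1, which is deleted in 11 of the 22 arrays, so that the mean of both genotypes dilutes its response. Socs1 differed by 1.28 ± 0.35 at 2 h (limma, adjusted p = 0.0948) and was called higher there with array weights. Acod1 makes itaconate and is characteristic of activated macrophages. It was 2.94 to 3.27 in the 6 controls. The IFNg-/- livers had 4.12 at 2 h and 3.59 at 4 h, and the SOCS1-/-IFNg-/- livers 3.72 and 4.87, all above every control. The response at 4 h was 1.06 ± 0.22 (SE, adjusted p from limma 0.00996, and 0.0541 with array weights). Even its highest value, 4.87, was below the median of the genes not expressed in liver (5.43 to 5.78). Of those 36 genes 1 was called higher at 1 or more times as well, Prm2, which ranged from 3.30 to 4.01. Fcgr1, an activating antibody receptor, rose by 0.41 ± 0.10 at 4 h (limma, adjusted p = 0.0283). The call was lost with array weights, without the untreated or the PBS 12 h pair, and against the untreated or the PBS 4 h livers alone. Ptgs2 and Il12b, which like Nos2 need a further stimulus in macrophages, had largest differences of -0.11 ± 0.08 and 0.05 ± 0.11, and Ptgs2 ranged from 2.33 to 2.67. The list's median response lay between -0.03 and 0.14.

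Macrophage markers were present and partly higher in the same livers. Of 15 measured, 4 rose at 1 or more times (C1qb, Cd14, Ctss and Mpeg1) and 0 fell, against 4.31% and 2.22% of all genes. Others were lower short of the threshold: Cd5l differed by -1.02 ± 0.29 (SE) at 12 h and -1.04 ± 0.29 at 16 h, and Clec4f by -0.51 ± 0.18 and -0.68 ± 0.18 (limma, adjusted p from 0.116 to 0.217). Their summed signal, on the log2 scale, was 10.9 to 11.1 in IFNg-/- controls, 10.9 to 11.2 early and 11.2 to 11.4 late. In SOCS1-/-IFNg-/- it was 11.1 to 11.2, 11.02 to 11.6 and 11.2 to 11.4. The sum of 11 neutrophil markers stayed between 9.39 and 9.64 on all 22 arrays, and 0 of 11 were called, which is near the shares of all genes. Csf3r, the brightest of them with a mean of 8.40, weighs most in this sum, which can hide changes in dimmer markers. S100a8 ranged from 3.85 to 5.69 and S100a9 from 3.95 to 5.35. The part of cell numbers in the levels of Wars, Acod1 or the members was not tested.

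The genes whose course over the 22 arrays was most like that of Gch1 were Pltp (Pearson r = 0.83), Ndrg2 (0.81), Serpina6 (0.76), Apoe (0.76) and Cul3 (0.75). The r is a measure of likeness over all 8251 genes and carries no test. Without the 2 arrays farthest from the median of Gch1 it was 0.67, 0.65, 0.59, 0.52 and 0.57 over 20 arrays. All 5 were lower in the SOCS1-/-IFNg-/- liver at 16 h than in the IFNg-/- liver, as Gch1 was: Pltp at 5.87 against 6.68, and Ndrg2 at 9.19 against 10.16. They were chosen for likeness over arrays that include this pair, so this follows in part from the choice. For Nos2 and Ido1, whose range was below 1, no such list was made.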

How the data were processed

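RNA of 22 mouse livers was measured on Affymetrix arrays. The authors deposited 1 value per probe set, read here as log2. The affy package is named per the submitters' processing notes. How arrays were normalized, background was corrected and probes were summarised is not given in the sources used here. That the scale is log2 follows from the range, 1.73 to 13.5, with array medians of 5.64 to 5.71. Of 12488 probe sets, 66 controls were left out; 10833 carried 1 gene symbol, 396 several and 1193 none in the platform's table, and unnamed ones were not used. The probe set with the highest mean represented it. Models were fitted with limma 3.58.1 (R 4.3.3), with Benjamini-Hochberg adjustment over 8251 genes: condition and genotype over 22 arrays (10 residual degrees of freedom), 11 within-pair differences (8, or 9 for the 4 h pair), and genotype by phase (16; early to 4 h, late from 12 h). With 1 array per condition, the genotypes or the times stood in for replicates, so a p-value reflects no more than the spread among these arrays, which may be technical. The number of arrays limits the precision. The fits were tested on simulated data.

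The members and lists were chosen with earlier results of these data known. Named were the 3 members, up to 6 called genes per pathway list by size, the 5 genes most like a member of range 1 or more, Irf1, Cxcl9, Socs1 and Ifng. Jak1, Fcgr1, Nr1d1, Cd5l, Clec4f and the uncalled list members described were named after their values were seen. Alternatives were all probe sets, the other Ido1 probe set, trend and robust eBayes, array weights, a filter on low genes, quantile normalization, other controls and leaving out each pair.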

Additional observations from a re-analysis of the deposited data

How the results depend on the processing

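The labels give no replicate numbers, so the genotypes were compared in pairs of the same condition. Every alternative fit left 0 members called in the responses, the genotype and phase comparisons, PBS against untreated, and interferon-gamma against PBS of the same time. Over these alternatives the smallest adjusted p was 0.106 for Nos2, 0.41 for Ido1 and 0.132 for Gch1. Uncalled differences changed sign in 18 of 331 values of Nos2, 29 of 352 of Ido1 and 16 of 352 of Gch1. The filter on low genes kept 2022 genes and removed Nos2 and Ido1, which then had no value. The number of arrays above the genes not expressed in liver depended on the reference. Against the 75th percentile Ido1 was above on 22 arrays (0 against the 95th). Against the level of Ifng, Nos2 and Ido1 were above on 22. Of the genes named, Wars, Ddc, Irf1, Irf8, Il1b, Cxcl9, Cxcl10, Gbp2, Igtp and Irgm1 kept their calls in all alternatives that gave a value, and Acod1 lost its call in 2 of 17, Jak2 in 5 of 17, Nfkbia in 4 of 18 and Rela in 2 of 18. The PBS against untreated comparison and the single-control settings were chosen after seeing the data. Searching the gene strand alone left 1 NF-kappaB match in the Gch1 window.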
